A study of Homo sapiens with 4 samples.

Results

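MGP, the gene of matrix Gla protein, was followed with 9 genes of bone morphogenetic protein (BMP) signalling in A375 melanoma cells given octanoate. The 10 genes are MGP, the ligands BMP2 and BMP4, the receptors BMPR1A and BMPR2, the target genes ID1, ID2 and ID3, and the inhibitory SMAD genes SMAD6 and SMAD7. They were taken by symbol from a table of 56832 genes, and all 10 were found and passed the filter on low values. MGP was selected on its lower normalised count under octanoate in these same libraries, so its values are given as a description with no test. The other 9 were named for their place in the pathway, with results of these libraries already known. A375 is an established human melanoma line, labelled wild type and grown in serum-containing medium. The treated group received 1 mM octanoate, a medium-chain saturated fatty acid, and the control group the solvent isopropanol, both for 48 h, with 2 libraries in each group. Whether the libraries of a group came from separate cultures is not labelled. The p-values therefore measure only the spread between these libraries, which may be technical. The fit shares that spread across genes of similar level, with 21.2 prior degrees of freedom. A single gene's p thus rests largely on the spread of other genes.

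BMPs are secreted ligands that bring together type I receptors such as BMPR1A and type II receptors such as BMPR2 at the cell surface. The receptors phosphorylate SMAD1, SMAD5 and SMAD9, which join SMAD4 and enter the nucleus, where ID1, ID2, ID3, SMAD6 and SMAD7 are among the genes they switch on. ID proteins bind E proteins of the basic helix-loop-helix family and keep them from DNA, while SMAD6 and SMAD7 feed back on the pathway and dampen it. Matrix Gla protein is a small vitamin K-dependent extracellular protein that binds BMP2 and BMP4 and restrains calcification of arteries and cartilage. The comparison asks whether the lower MGP level went with a change in BMP target genes.

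The stretch upstream of the start of 4 target genes is shown because these genes moved in different directions: ID1, ID2 and ID3 rose and SMAD6 fell. Each sequence is the 250 bases before the RefSeq start on build GRCh38.p14, written 5′ to 3′ along the gene's strand. The ID1 window is chr20:31605039-31605288 on the plus strand, and that of ID2 is chr2:8681806-8682055 on the plus strand. The ID3 window is chr1:23559502-23559751 on the minus strand, and that of SMAD6 is chr15:66701986-66702235 on the plus strand. The GENCODE 29 spans given below begin elsewhere. By them, the ID2 and ID3 windows lie wholly inside their genes. The ID1 and SMAD6 windows end just inside theirs, and the palindrome marked for SMAD6 straddles that start. Capitals mark matches on either strand to the palindromic SMAD binding element GTCTAGAC, to the element GGCGCC that SMAD1 and SMAD5 bind, to the TATA box (TATAAA) and to the CCAAT box.
ID1: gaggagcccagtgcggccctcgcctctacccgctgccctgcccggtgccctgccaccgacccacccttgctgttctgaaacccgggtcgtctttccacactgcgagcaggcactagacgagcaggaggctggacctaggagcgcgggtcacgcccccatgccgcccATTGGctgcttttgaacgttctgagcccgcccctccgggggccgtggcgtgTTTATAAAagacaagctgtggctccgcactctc
ID2: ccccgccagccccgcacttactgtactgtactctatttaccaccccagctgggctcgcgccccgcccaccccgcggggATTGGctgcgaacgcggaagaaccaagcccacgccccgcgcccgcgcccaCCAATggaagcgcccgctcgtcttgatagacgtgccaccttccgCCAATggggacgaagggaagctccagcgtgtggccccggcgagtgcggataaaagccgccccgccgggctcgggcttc
ID3: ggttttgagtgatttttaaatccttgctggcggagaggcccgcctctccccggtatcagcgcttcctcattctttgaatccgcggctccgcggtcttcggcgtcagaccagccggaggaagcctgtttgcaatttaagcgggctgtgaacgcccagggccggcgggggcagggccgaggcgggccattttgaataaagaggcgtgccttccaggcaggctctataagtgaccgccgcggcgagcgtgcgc
SMAD6: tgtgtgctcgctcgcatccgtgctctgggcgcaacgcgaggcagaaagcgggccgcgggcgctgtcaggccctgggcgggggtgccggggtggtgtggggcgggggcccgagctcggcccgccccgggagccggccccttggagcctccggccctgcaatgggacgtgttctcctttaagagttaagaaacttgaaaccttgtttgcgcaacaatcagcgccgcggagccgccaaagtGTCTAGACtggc
The SMAD6 window holds the palindrome GTCTAGAC from base 12 to base 5 before the start, and 0.182% of all 35116 windows of this length hold it. Neither that palindrome nor GGCGCC occurs in the ID1, ID2 or ID3 window, and 16.4% of all windows hold GGCGCC. SMAD7, a target gene that also fell, is not shown, and none of its 3 windows holds either element. Among the other genes described, the BMPR2 window and 1 of 3 BMP4 windows hold GGCGCC. ID1 has 2 overlapping matches to the TATA box, which together span bases 33 to 26 before its start. Of all windows, 10.7% hold a match anywhere in their 250 bases. The CCAAT box occurs 1 time in the ID1 window and 3 times in the ID2 window, and 32.0% of all windows hold it. The G and C share was 66.0% for ID1, 69.2% for ID2, 62.0% for ID3 and 68.0% for SMAD6, where the median window has 58%. TGACGTCA, the cAMP response element (1.65% of all windows), and TGANTCA, the AP-1 site (6.57%), are in none of the 4 windows. CANNTG, the E-box (61.8% of all windows), is among these 4 in the ID2 window only. Windows matched 8 of the 10 symbols, the others being MGP and BMP2. A match describes letters and was not tested as a binding site.

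The libraries held between 67785956 and 78005035 reads, recovered from the normalised counts. Replicates differed by more than sampling noise, with a chi-square per degree of freedom of 3.48 for the vehicle pair and 4.37 for the octanoate pair, and were kept apart. Of the melanocyte lineage markers, SOX10, MITF and S100B had at least 1746 normalised counts in every library. MITF and S100B were called lower in octanoate, with log2 differences of -0.48 and -1.12, and PMEL higher, with 0.55. The pigment genes PMEL, MLANA, DCT, TYRP1 and TYR and the channel gene TRPM1 were low, between 1.93 and 98.2 normalised counts, so the label rests on SOX10, MITF and S100B. The 10 lineage markers summed to 45165 to 49417 in vehicle and 38699 to 43769.8 in octanoate. The 5 markers of a dedifferentiated melanoma state summed to 54137 to 57889 and 61809.8 to 62706, with AXL and EGFR called higher and NGFR lower. The 4 keratinocyte markers summed to 5673 to 6703 and 4787 to 6441, with KRT14 called lower, from a mean of 1026 to 242 (log2 -2.08), and the 4 haematopoietic markers to 26.2 to 35.3 and 25.03 to 28.2, with none called. The summed level of 5 endothelial markers was 612 to 617 in vehicle and 814 to 829.7 in octanoate, with 2 of 5 called higher and the defining gene CDH5 between 8.66 and 21.7. For 4 vascular smooth muscle markers the sum was 268 to 338 and 322 to 327, with 1 of 4 called higher. That gene, DES, averaged 9.25 normalised counts in vehicle and 21.9 in octanoate. With a filter at a mean of 10 over all libraries, DES was tested only through its octanoate level. For 4 chondrocyte markers the sum was 853 to 989 and 1141 to 1188, with 1 of 3 tested called higher and 1 lower. The 7 fibroblast markers summed to 2594 to 2642 and 2266 to 2419, with 2 called lower. Beside these marker counts, 16.2% of all tested genes were called higher and 13.7% lower under octanoate. Of all markers, KRT1 alone was at 0 in all 4 libraries. The part of other cells or states in the results was not tested.

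MGP lies at chr12:14881181-14885926, minus strand (GENCODE 29, GRCh38). Its normalised count, a read count divided by 1 size factor per library, was 346 and 335 in vehicle 1 and 2 and 39.5 and 41.2 in octanoate 1 and 2. Both octanoate libraries lay far below both vehicle libraries, and replicates were close to each other. The means were 340.4 ± 7.27 and 40.3 ± 1.21 (SD, n = 2 each), 8.44-fold lower under octanoate, a log2 difference of -3.05 on the log2(normalised count + 1) scale. The recovered reads were 352, 346, 41 and 38 in the same order. In bulk RNA, fewer cells that express a gene and less RNA per cell cannot be told apart. MGP overlaps exons of C12orf60 on the opposite strand by 76 bases, and whether counting used strand is not given in the sources used here.

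**Figure D1:**
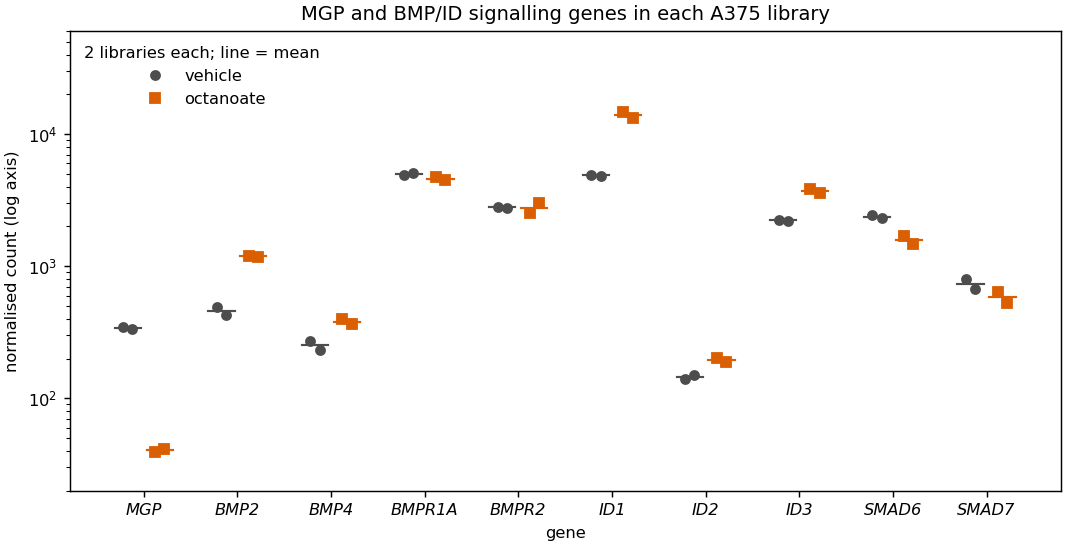
Normalised count (log axis) of the 10 genes in each of the 4 A375 libraries, with circles for the 2 vehicle libraries, squares for the 2 octanoate libraries and a line at each group's mean. MGP sits near 340.4 in vehicle and 40.3 in octanoate, ID1 and BMP2 are higher in both octanoate libraries, and the groups overlap for BMPR2 only.

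Of the 9 genes other than MGP, 5 were higher under octanoate, 2 were lower and 2 were not called. Octanoate was compared with vehicle by limma over 20250 genes, and a gene was called at a Benjamini-Hochberg adjusted p under 0.05. The 7 called genes were 77.8% of the 9, against 29.9% of all tested genes. All 9 averaged over 50 normalised counts. In a fit of the 15069 genes averaging at least 50, 5764 were called, a larger share than 29.9%. The 29.9% set beside each list below is likewise not matched for level. Those called higher were BMP2, BMP4, ID1, ID2 and ID3, where 16.2% of all tested genes were, and those called lower were SMAD6 and SMAD7, where 13.7% were. BMP2 and ID1 were called with an absolute log2 difference of at least 1, as were 4.21% of all tested genes. The groups did not overlap for 8 of the 9, and for 63.1% of all tested genes. The median log2 difference was 0.43 over the 9 and 0.01 over all tested genes. The set was put together with results of these libraries known, so these counts describe the genes and are no independent support. With 2 libraries a group, the smallest two-sided p of an exact permutation test is 0.333, and no gene was tested that way.

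BMP ligand genes that were called were higher under octanoate. BMP2 (chr20:6767664-6780280, plus strand), which encodes an inducer of bone and cartilage that matrix Gla protein binds, had 489.8 and 430.2 normalised counts in vehicle and 1198 and 1178 in octanoate. Its groups were far apart, and the octanoate libraries were the closer pair. BMP2 rose 2.58-fold to a mean of 1188 ± 14.4 normalised counts (SD, n = 2), a log2 difference of 1.37 with an SE of 0.09 (limma adjusted p = 1.09e-11). BMP4 (chr14:53949736-53958761, minus strand), a close relative of BMP2, had 269.9 and 233 normalised counts in vehicle and 397 and 366 in octanoate. Its groups did not overlap, and it rose 1.52-fold, by 0.60 on the log2 scale with an SE of 0.11 (limma adjusted p = 2.55e-04). With no intensity trend the adjusted p of BMP4 was 0.0624.

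Other BMP ligand genes were read from a list of 15, of which 13 are outside the 10 genes and 5 of these passed the filter. Of the 5, 2 were called higher and none lower (40%, against 29.9% of all tested genes). BMP6, another ligand of the BMP receptors, had 343 and 338 normalised counts in vehicle and 1200.3 and 1222 in octanoate, and rose by 1.83 on the log2 scale with an SE of 0.09 (limma adjusted p = 3.96e-14). BMP7 had 341 and 333 normalised counts in vehicle and 756 and 704 in octanoate, and rose by 1.11 with an SE of 0.09 (limma adjusted p = 1.82e-09). GDF7, a ligand of the same family, was not called, with a log2 difference of 0.86 (limma adjusted p = 0.0691). Without vehicle 2 GDF7 was called (1.18, limma adjusted p = 0.0396). BMP8B, singled out after its values were seen because it was the most abundant ligand gene per kilobase, had 3172 and 2684 normalised counts in vehicle and 2654 and 2601 in octanoate. Its log2 difference was -0.15 (limma adjusted p = 0.115), and without vehicle 2 it was called lower (-0.27, limma adjusted p = 0.0153). The 8 genes not tested, BMP3, BMP5, BMP10, BMP15, GDF2, GDF5, GDF6 and GDF10, had mean normalised counts under 10 over the 4 libraries.

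Levels of different genes were set side by side only per kilobase of GENCODE 29 exon. Summed over the 15 ligand genes, the normalised count per kilobase was 1109 and 966 in vehicle and 1621 and 1601 in octanoate, 1.55-fold higher. BMP8B made up 58.5% ± 1.23 of this sum in vehicle and 33.8% ± 0.180 in octanoate (here and below, mean ± SD of 2 libraries). The count of BMP8B is uncertain, as it overlaps exons of PPIE on the opposite strand by 80 bases. It also shares 151 bases at 96.0% identity with PPIEL. BMP6 went from 11.9% ± 1.04 to 27.1% ± 0.590 of the sum, and BMP2 from 12.3% ± 0.0674 to 20.5% ± 0.0662. BMP4 held 7.87% ± 0.0415 and 7.68% ± 0.363, a difference smaller than the SD in octanoate. Leaving BMP8B out, the ligand sum per kilobase was 2.48-fold higher in octanoate.

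MGP is on a list of genes of secreted or membrane proteins that antagonise or modulate BMPs or related ligands. The other genes of this list that were called were higher. The list holds 20 genes, 19 besides MGP, of which 13 passed the filter. Of these 13, 8 were called higher and 0 lower (61.5%, against 29.9% of all tested genes), with a median log2 difference of 0.48. NOG, which encodes the BMP antagonist noggin, had 14.7 and 16.5 normalised counts in vehicle and 72.2 and 72.6 in octanoate, and rose by 2.15 on the log2 scale with an SE of 0.28 (limma adjusted p = 1.86e-06). CHRD, which encodes the antagonist chordin, had 8.83 and 5.81 normalised counts in vehicle and 21.2 and 26.01 in octanoate, and rose by 1.58 with an SE of 0.44 (limma adjusted p = 0.00877). CHRD was not called without octanoate 2 (1.44, limma adjusted p = 0.105) or with no filter (adjusted p 0.0905). CHRD, among the 8 called higher, averaged 7.32 normalised counts in vehicle and 23.6 in octanoate. The filter asks for a mean of at least 10 over all libraries, so CHRD was tested only through its octanoate level. CHRD overlaps exons of THPO on the opposite strand by 361 bases. GREM1 and BMPER, singled out after their values were seen, were not called, with log2 differences of -1.16 (limma adjusted p = 0.0789) and -1.34 (limma adjusted p = 0.0647) at means under 20 normalised counts. Both were tested only through their vehicle level, with octanoate means of 6.68 and 5.12.

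FST, which encodes follistatin, a binder of activins and of some BMPs, made up the greatest share of this list's summed level per kilobase. It had 17681 and 16408 normalised counts in vehicle and 31162 and 31421 in octanoate, and rose by 0.88 on the log2 scale with an SE of 0.06 (limma adjusted p = 2.45e-11). FSTL3, a follistatin relative, rose by 0.73 with an SE of 0.06 (limma adjusted p = 1.91e-09), and CRIM1, which encodes a membrane protein that binds BMPs, by 0.48 with an SE of 0.06 (limma adjusted p = 3.20e-07). The other 3 called genes, CHRDL1, FSTL1 and NBL1, were named after their values were seen and rose by 0.40, 0.50 and 0.26 on the log2 scale. None of these 3 was called with no intensity trend, at adjusted p of 0.0691, 0.0516 and 0.154, and with no filter NBL1 had 0.102. NBL1 was also not called without vehicle 2 (0.20, limma adjusted p = 0.0659) or without octanoate 1 (0.20, limma adjusted p = 0.0597). Counts of CRIM1, FSTL1 and NBL1 are uncertain because their exons overlap those of other genes. In the sum of all 20 genes per kilobase, MGP made up 1.03% ± 0.0186 in vehicle and 0.0776% ± 0.00277 in octanoate, while FST made up 45.8% ± 0.613 and 53.5% ± 0.611. That sum was 12874 and 12176 in vehicle and 19765 and 19610.2 in octanoate, 1.57-fold higher.

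Neither receptor gene of the set was called. BMPR1A (chr10:86756601-86932838, plus strand), a type I receptor for BMP2 and BMP4, had 4917 and 5090.3 normalised counts in vehicle and 4698 and 4521 in octanoate. The groups did not overlap, but the log2 difference of -0.12 (95% interval -0.24 to 0.00301, limma adjusted p = 0.137) was not called. BMPR1A shares 1599 bases at 98.6% identity with the pseudogene BMPR1AP1 and 1011 bases at 99.2% identity with BMPR1AP2, so its count is uncertain. BMPR2 (chr2:202376936-202567751, plus strand), the type II receptor, had 2818 and 2755 normalised counts in vehicle and 2549 and 3004 in octanoate. The 2 octanoate libraries lay on either side of the vehicle libraries, with a log2 difference of -0.01 (95% interval -0.16 to 0.14, limma adjusted p = 0.935).

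Of 10 tested receptor and co-receptor genes outside the 10 described, 1 was called higher and 2 lower (30%, against 29.9% of all tested genes). RGMA, which encodes a BMP co-receptor, had 152 and 151 normalised counts in vehicle and 89.5 and 78.0 in octanoate, and fell by 0.85 on the log2 scale with an SE of 0.16 (limma adjusted p = 2.92e-04). Exons of RGMA overlap those of AC087641.1. TGFBR3, the gene of the co-receptor betaglycan, fell by 0.29 with an SE of 0.10 (limma adjusted p = 0.0297). Leaving out vehicle 1, vehicle 2, octanoate 1 or octanoate 2, TGFBR3 was not called, with adjusted p of 0.0951, 0.130, 0.112 and 0.0843. Its adjusted p was 0.0852 with no filter, 0.0772 with no intensity trend and 0.106 by DESeq2. The type I receptor gene BMPR1B had 78.5 and 98.8 normalised counts in vehicle and 138 and 112 in octanoate, and rose by 0.49 with an SE of 0.18 (limma adjusted p = 0.0416). It was not called without vehicle 1 (0.32, limma adjusted p = 0.293) or without octanoate 1 (0.34, limma adjusted p = 0.312). BMPR1B also lost its call with no filter (0.211), equal column totals (0.0574), no intensity trend (0.175) and DESeq2 (0.199), all adjusted p.

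Among the 6 SMAD genes that carry the signal, 1 was called (16.7%), a share below the 29.9% of all tested genes. SMAD9, whose product is phosphorylated by BMP receptors, had 65.8 and 59.1 normalised counts in vehicle and 98.2 and 122 in octanoate. It rose by 0.80 on the log2 scale with an SE of 0.19 (limma adjusted p = 0.00233), and was not called without octanoate 2 (0.65, limma adjusted p = 0.0554). Its adjusted p was 0.0576 with no filter on low values and 0.0631 with no intensity trend. SMAD5, another substrate of the BMP receptors, had a log2 difference of -0.10 (limma adjusted p = 0.202), and SMAD2, which carries TGF-beta and activin signals, one of 0.11 (limma adjusted p = 0.150).

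Both inhibitory SMAD genes were lower. SMAD6 (chr15:66702228-66782848, plus strand), whose product blocks BMP receptor signalling, had 2448 and 2301 normalised counts in vehicle and 1679 and 1473 in octanoate. The palindrome before its RefSeq start is shown above. The 2 groups were well separated, with the wider spread between the octanoate libraries. SMAD6 fell by 0.59 on the log2 scale with an SE of 0.07 (limma adjusted p = 7.05e-07), so that its mean was 1.51-fold lower. With no intensity trend its adjusted p was 0.0555. SMAD7 (chr18:48919853-48952052, minus strand), which inhibits TGF-beta as well as BMP receptors, had 798 and 669 normalised counts in vehicle and 641 and 528 in octanoate. The gap between its groups was smaller than the distance between replicates. SMAD7 fell by 0.33 with an SE of 0.10 (limma adjusted p = 0.0160), and was not called without vehicle 1 (-0.20, limma adjusted p = 0.267) or without octanoate 2 (-0.19, limma adjusted p = 0.238). Its adjusted p was 0.239 with no filter and 0.249 with no intensity trend.

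**Figure D2:**
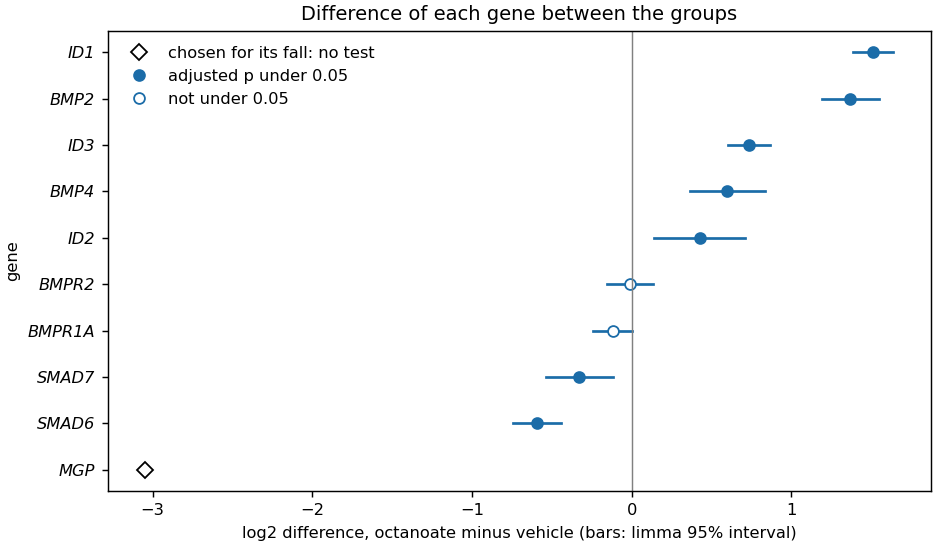
Log2 difference, octanoate minus vehicle, of each of the 10 genes on the log2(normalised count + 1) scale, with limma 95% intervals, filled circles for an adjusted p under 0.05, open circles above it and a diamond for MGP, which has no test. BMP2, BMP4, ID1, ID2 and ID3 lie right of 0, SMAD6 and SMAD7 left of it, and the intervals of BMPR1A and BMPR2 reach across 0.

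Besides SMAD6 and SMAD7, the list of inhibitors inside the cell or in its membrane had 13 tested genes, of which 3 were called higher and 4 lower (53.8%, against 29.9% of all tested genes). BAMBI, a membrane pseudoreceptor gene that is itself a BMP target, had 2716 and 2279 normalised counts in vehicle and 1333 and 1196 in octanoate. BAMBI fell by 0.98 on the log2 scale with an SE of 0.08 (limma adjusted p = 9.88e-10). TOB1, an antiproliferative gene whose product binds SMADs, fell by 0.41 with an SE of 0.07 (limma adjusted p = 4.11e-05). SMURF2, which encodes an E3 ubiquitin ligase for SMADs and their receptors, rose by 0.37 with an SE of 0.06 (limma adjusted p = 2.07e-05). With no intensity trend the adjusted p was 0.0528 for TOB1 and 0.0582 for SMURF2. Each has exon overlap with an opposite-strand gene, TOB1 with TOB1-AS1 and SMURF2 with CEP95.

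The 3 ID genes of the set were all called higher, by unequal amounts. ID1 (chr20:31605283-31606515, plus strand), a direct BMP target in many cell types, had 4939 and 4828 normalised counts in vehicle and 14770.2 and 13141 in octanoate. Both octanoate libraries were far above both vehicle libraries. ID1 rose 2.86-fold to a mean of 13956 ± 1152 normalised counts (SD, n = 2), a log2 difference of 1.51 with an SE of 0.06 (limma adjusted p = 2.46e-15). ID3 (chr1:23557918-23559794, minus strand), often induced with ID1, had 2222 and 2218 normalised counts in vehicle and 3833 and 3554 in octanoate. Its groups did not overlap, and it rose 1.66-fold, by 0.73 on the log2 scale with an SE of 0.06 (limma adjusted p = 2.84e-09).

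ID2 (chr2:8678845-8684453, plus strand), whose product binds E proteins like the other ID proteins, had 140.4 and 151 normalised counts in vehicle and 203 and 189.7 in octanoate. It rose by 0.43 on the log2 scale with an SE of 0.14 (limma adjusted p = 0.0210), with groups that did not overlap. It was not called without vehicle 1 (0.37, limma adjusted p = 0.120) or without octanoate 1 (0.38, limma adjusted p = 0.130). Its adjusted p was 0.0863 with no filter, 0.0664 with no intensity trend and 0.131 by DESeq2. ID2 overlaps ID2-AS1 on the opposite strand by 38 bases and shares 405 bases at 95.6% identity with AC104849.1, so its count is uncertain. ID4, the remaining ID gene, singled out after its values were seen, had 178 and 159 normalised counts in vehicle and 124 and 82.4 in octanoate. ID4 fell by 0.73 with an SE of 0.18 (limma adjusted p = 0.00273), and was not called without octanoate 2 (-0.43, limma adjusted p = 0.0839), with no filter (0.134) or with no intensity trend (0.149). Summed over ID1 to ID4, the normalised count per kilobase was 5382 and 5286 in vehicle and 14257 and 12757 in octanoate. ID1 made up 74.3% ± 0.253 of that sum in vehicle and 83.8% ± 0.335 in octanoate, and ID3 23.2% ± 0.261 and 15.2% ± 0.383.

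The list of BMP target genes did not move one way. Of its 13 tested genes outside the 10 described, 6 were called higher and 5 lower (84.6%, against 29.9% of all tested genes), with a median log2 difference of -0.07. ATOH8, a transcription factor gene induced by BMPs, had 851 and 868 normalised counts in vehicle and 323 and 285 in octanoate, and fell by 1.498 on the log2 scale with an SE of 0.10 (limma adjusted p = 1.28e-11). DLX3, a homeobox gene, had 17.7 and 9.69 normalised counts in vehicle and 87.6 and 94.3 in octanoate, and rose by 2.70 with an SE of 0.30 (limma adjusted p = 1.60e-07). RUNX2, a bone transcription factor gene named here after its values were known, fell by 0.47 with an SE of 0.11 (limma adjusted p = 0.00153). The adjusted p of RUNX2 was 0.0682 with no intensity trend. With ID1, ID2, ID3, SMAD6 and SMAD7 included, the median of the 18 genes was 0.13. NOG, SMAD9 and BAMBI, described above, are on this list too, NOG and SMAD9 higher and BAMBI lower.

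**Figure D3:**
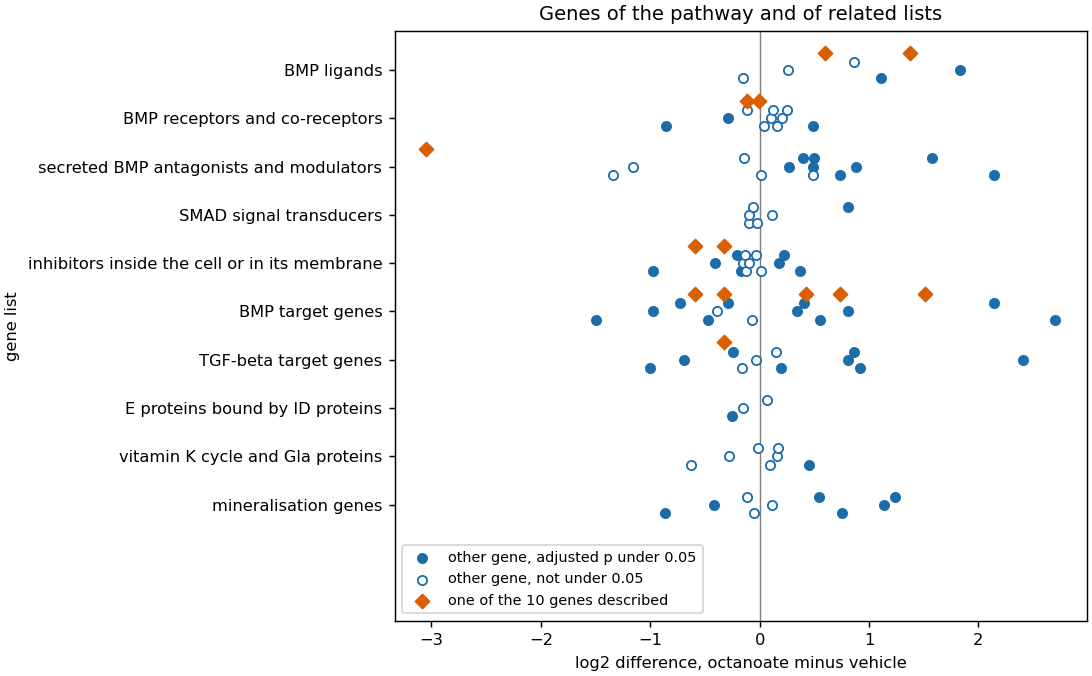
Log2 difference, octanoate minus vehicle, of each tested gene in 10 gene lists, with filled circles for an adjusted p under 0.05, open circles above it and diamonds for the genes described. MGP at -3.05 lies apart from the other secreted antagonists and modulators, of which 8 of 13 were called higher. The BMP target genes spread to both sides of 0.

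Genes that respond to TGF-beta, the related ligand that signals through SMAD2 and SMAD3, were read as a neighbouring list. Of 11 tested besides SMAD7, 5 were called higher and 3 lower (72.7%, where 29.9% of all tested genes were called), with a median log2 difference of 0.15. PMEPA1, which encodes a membrane protein that restrains TGF-beta signalling, had 5428 and 5028 normalised counts in vehicle and 9875 and 9158 in octanoate, and rose by 0.86 with an SE of 0.06 (limma adjusted p = 7.30e-11), and overlaps NKILA on the opposite strand. TGFBI, a matrix protein gene, fell by 1.00 with an SE of 0.06 (limma adjusted p = 8.74e-12).

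Of the 3 genes of E proteins, which ID proteins bind, 1 was called (33.3%), about the share of all tested genes (29.9%). TCF12 had 13904 and 13668 normalised counts in vehicle and 11264 and 11894 in octanoate, and fell by 0.25 on the log2 scale with an SE of 0.06 (limma adjusted p = 0.00135). With no intensity trend its adjusted p was 0.109. TCF3 had a log2 difference of 0.07 (limma adjusted p = 0.415) and TCF4 one of -0.15 (limma adjusted p = 0.116).

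Matrix Gla protein is made active by carboxylation, for which cells recycle vitamin K. Of 7 tested genes of the vitamin K cycle and of other Gla proteins, 1 was called (14.3%), also below the 29.9% of all tested genes. That gene, GAS6, which encodes a ligand of the AXL receptor family, had 592 and 513 normalised counts in vehicle and 806 and 708 in octanoate, and rose by 0.45 with an SE of 0.09 (limma adjusted p = 6.78e-04). Its adjusted p was 0.110 with no intensity trend and 0.0741 with no filter. VKORC1, which encodes the epoxide reductase of the cycle, had a log2 difference of 0.15 (limma adjusted p = 0.275), and PROS1, the gene of protein S, one of 0.17 (limma adjusted p = 0.0788). PROS1 shares 1953 bases at 96.8% identity with the pseudogene PROS2P, VKORC1 overlaps AC135050.2 and GAS6 overlaps GAS6-AS1, so these counts are uncertain.

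Genes that act on mineral deposition, the process that matrix Gla protein restrains, were called in both directions, 4 higher and 2 lower of 9 tested (66.7%, against 29.9% of all tested genes). NT5E, which encodes the enzyme CD73 that makes adenosine outside the cell, had 6277 and 6178 normalised counts in vehicle and 14322 and 15002 in octanoate, and rose by 1.23 with an SE of 0.06 (limma adjusted p = 2.67e-14). SLC20A1, a phosphate importer gene, rose by 0.76 with an SE of 0.06 (limma adjusted p = 6.16e-10). PHOSPHO1, which encodes a phosphatase of mineralising cells, had 47.1 and 35.8 normalised counts in vehicle and 93.4 and 90.0 in octanoate, and rose by 1.14 with an SE of 0.22 (limma adjusted p = 2.85e-04). SPP1, the gene of osteopontin, fell by 0.86 on the log2 scale with an SE of 0.08 (limma adjusted p = 2.49e-08).

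Per kilobase of exon, ID1 was the most abundant of the 10 genes in both groups, at 3961 ± 63.9 in vehicle and 11319 ± 934 in octanoate, followed by ID3 and BMPR1A. In vehicle, MGP at 129 ± 2.76 and BMP2 at 128 ± 11.7 per kilobase were neighbours whose libraries overlapped, above BMP4 and ID2. In octanoate BMP2 stood at 330.0 per kilobase, next after BMPR1A, and MGP at 15.3 ± 0.460, last. BMP4 at 124 ± 6.94 and SMAD7 at 116 ± 15.9 were neighbours in octanoate whose libraries overlapped. All other neighbours in these orders had separate values in the 2 libraries of each group. The annotation used for counting is not given in the sources used here, so these levels rest on GENCODE 29 lengths.

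Genes whose pattern over the 4 libraries was most like that of MGP were sought among 13481 others averaging at least 100 normalised counts. Likeness was the Euclidean distance between log2(normalised count + 1) profiles, each centred on its own mean. UNC5C, a netrin receptor gene, was nearest at a distance of 0.334, with 164 and 186 normalised counts in vehicle and 24.1 and 26.01 in octanoate. PLEKHS1 followed at 0.389, with 388 and 399 normalised counts in vehicle and 37.5 and 34.7 in octanoate. TF, the gene of transferrin, was next at 0.772, with 361 and 353 normalised counts in vehicle and 64.5 and 80.2 in octanoate. All 3 were lower in both octanoate libraries, and likeness over 4 libraries mainly reads the difference that also chose MGP.

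The authors' deposited table of the same comparison gave an adjusted p under 0.05 to 5 of the 9 genes, and to 12.9% of its 33533 genes. That base is wider than the 20250 genes behind the 29.9%, so the 2 shares are not alike. Among those 20250 genes, DESeq2 on recovered reads called 4924. In the authors' deposited table the log2 fold change was 1.52 for ID1, 1.37 for BMP2, 0.73 for ID3, 0.60 for BMP4 and -0.59 for SMAD6. The authors' deposited table lists an adjusted p of 0.0764 for SMAD7 and 0.167 for ID2, so these calls differ between the tests. For the receptors, the authors' deposited table lists 0.192 for BMPR1A and 0.976 for BMPR2.

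**Figure D4:**
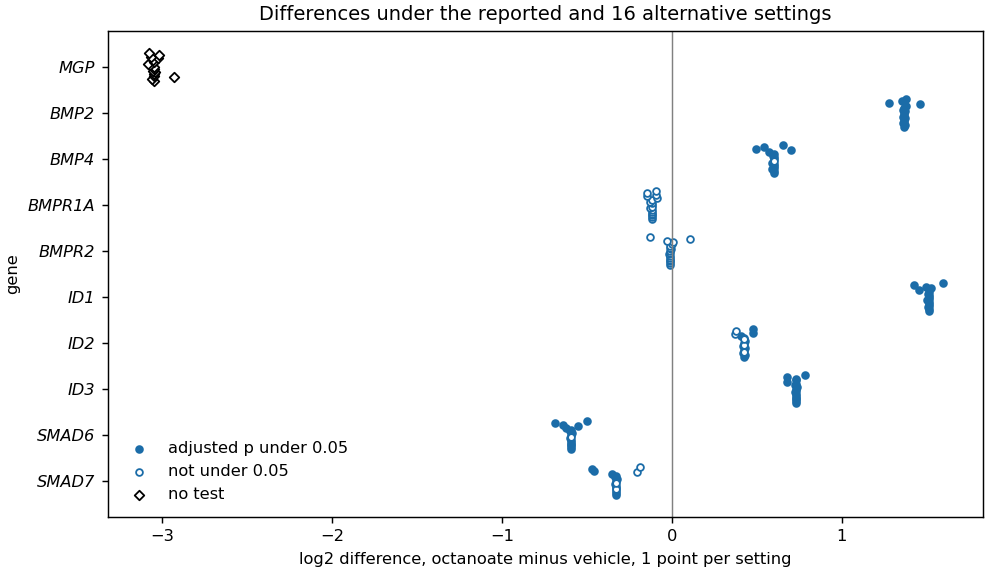
Log2 difference, octanoate minus vehicle, of the 10 genes under the reported setting and 16 alternatives, 1 point each, filled where the adjusted p was under 0.05, open where it was not and diamonds for MGP, which has no test. ID1, ID3 and BMP2 were called under all 16 alternatives, and BMPR2 lies on both sides of 0.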

How the data were processed

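RNA was sequenced from A375 cells in 2 vehicle and 2 octanoate libraries, grouped by their labels. The submitters' processing notes name bcl2fastq 2.17, Trim Galore, STAR 2.4, Picard, HTSeq 0.9.1, DESeq2 and the build hg38, with no role or order. The deposited signal per gene is a DESeq2-normalised count, going by the name the authors gave the table. Divided by the lowest positive value of the library, 100% of positive values were whole (within 0.01), and these quotients were taken as reads. A table deposited by the authors also holds their mean signal, log2 fold change, test score and p-value per gene.

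The 20250 genes averaging at least 10 normalised counts entered a limma 3.58.1 fit (R 4.3.3) of log2(normalised count + 1), with an intensity trend and treatment as its only term. Tests had 2 sides, and p-values were adjusted by Benjamini-Hochberg over all of these genes. Differences of low genes are understated on this scale. Alternatives were pseudocounts of 0.5 and 5, other filters, TMM factors, equal column totals, no intensity trend, the replicate number as a block, edgeR 4.0.16 (quasi-likelihood) and DESeq2 1.42.0 on recovered reads, removal of GC content and length trends, and leaving out each library. A fit over GENCODE 29 genes only was chosen after seeing the data. The fits were tested on simulated data. A pass was required only of limma at a log2 difference of 2 and of the removal of a GC trend.

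The 10 genes, 10 pathway lists and marker lists were chosen with earlier results of these data known. Named genes were the 10, the 3 other genes of each list with the smallest p and any called gene of a list with an absolute log2 difference of at least 1. A gene that this rule names is not reported here. HJV was matched as HFE2 and CCN2 as CTGF through RefSeq synonyms. GENCODE 29 (GRCh38) gave coordinates, exon lengths and overlaps, RefSeq (GRCh38.p14) the upstream sequences, and blastn 2.17.0 the shared sequence (at least 95% identity over at least 100 bases).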

Additional observations from a re-analysis of the deposited data

How the results depend on the processing

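A pair of settings moved the counts of called genes by over 1.5 times. With no filter on low values 2595 genes were called in place of 6048, and 28 of the other pathway genes in place of 45. With no intensity trend 1625 genes, 22 pathway genes and 3 of the 9 BMP and ID genes (BMP2, ID1 and ID3) were called. The cause was not tested. Leaving out 1 library gave between 4295 and 4757 called genes, between 5 and 7 of the 9, and between 37 and 40 pathway genes, where the lone library of a group is assumed to vary like the others. BMP2, ID1 and ID3 were called under all 16 alternatives, with adjusted p of at most 0.0212, 0.0185 and 0.0296. BMP4 and SMAD6 were called under 15 of 16, ID2 under 11 and SMAD7 under 12. BMPR2 changed sign at values near 0, with 0.00243 under the void correction for GC content and length, and its leave-one-out log2 differences ran from -0.13 to 0.11, above 0 without vehicle 1 (0.01) or octanoate 1. The log2 difference of MGP lay between -3.09 (DESeq2) and -2.93 (a pseudocount of 5).

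What the replicate numbers stand for is not labelled, and only 2 pairs exist. Same-numbered libraries deviated from their group means with a correlation of 0.13 across 20250 genes and 0.27 across the 13482 averaging at least 100, and genes are not independent. A fit with this replicate block called 8376 genes, 62 pathway genes and 8 of the 9, BMPR1A being added at an adjusted p of 0.0223. GC content and length were matched for 77.0% of tested genes, under 80%, which makes that correction void over the whole table, and no call given rests on it alone. Few reads lie behind the vehicle levels of CHRD, NOG and DLX3.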
